A study of Mus musculus with 12 samples.

Results

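Shh, Ptch1, Gli1, Rspo3, Wnt4, Ctnnb1, Axin2, Lef1, Znrf3 and Rnf43 carry the Hedgehog, Wnt and R-spondin signals that pass between the capsule and the outer cortex of the adrenal gland. These 10 genes were chosen by name, and all 10 were among the 24421 genes of the deposited table. RNA came from whole adrenals, cleaned of fat, of female mice aged 2 months on a mixed sv129-C57BL/6 background, with 4 libraries each from control, Abca1 cKO and Abcg1 cKO mice. Both cKO groups carried a Cre recombinase under the aldosterone synthase (Cyp11b2) promoter, which is active in the zona glomerulosa, so that recombination starts in these cells and reaches the deeper cortex through their descendants. In Abcg1 cKO mice both Abcg1 alleles were conditional, and in Abca1 cKO mice both Abca1 alleles were. The design text gives the controls as carrying Cre only, whereas the study's methods count as controls littermates with Cre alone and littermates with a single conditional allele, and the sample labels do not say which of these gave the 4 control libraries. Whole glands also hold capsule, medulla, vessels and other cells in which this Cre is not active.

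In the adrenal gland, cells just under the capsule secrete Sonic hedgehog, which capsular cells receive through the Patched receptor and answer by switching on Gli1. Capsular cells in turn secrete R-spondin, which removes the ubiquitin ligases Znrf3 and Rnf43 from the surface of cortical cells and so preserves their Wnt receptors. Wnt ligands then stabilize beta-catenin, the product of Ctnnb1, which enters the nucleus, binds TCF and LEF factors and drives targets such as Axin2 in the zona glomerulosa. Together these signals maintain the progenitor cells of the cortex and the identity of its outermost zone.

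The measured values were the authors' mean normalized counts, 1 mean for the 4 Abcg1 cKO libraries and 1 for the 8 control and Abca1 cKO libraries, which form the comparison group. The 12 columns of single libraries have headers found in none of the sample labels, and they were left unused, as were the authors' own standard errors and p-values. No spread between animals is therefore given, no test was made, and control was not separated from Abca1 cKO. Every comparison below is a description of 2 means, and differences between them were not set against the variation between mice. Ratios are on the log2(value + 1) scale, Abcg1 cKO over the comparison group, and a gene is called lower or higher when its ratio passed 1.2-fold, a log2 ratio of 0.26 in either direction. Abcg1, the targeted gene, had a mean of 250 in Abcg1 cKO adrenals against 305 in the comparison group (log2 ratio -0.29), counted over the whole gene and not over the deleted exon. Depth per library is not known from means, and fewer cells of a type cannot be told apart from less RNA per cell in whole glands.

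Of the 10 genes, 4 had lower means in Abcg1 cKO adrenals past 1.2-fold, namely Shh, Lef1, Gli1 and Axin2. None was higher past 1.2-fold, and the other 6 lay within it. Among all 14284 genes with a level of at least 10, a level being the average of the 2 group means, 11.95% were lower and 10.6% were higher past the same fold. All 10 genes passed this filter. Their median log2 ratio was -0.18, against 0.00206 for all genes that passed. Lower ratios were more common among weakly expressed genes. Gli1, Lef1 and Rnf43 were in the class of levels from 50 to under 200, where 20.7% of 2530 genes were lower. Shh, Ptch1, Rspo3, Axin2 and Znrf3 were in the class from 200 to under 1000, where 7.29% of 5540 genes were lower.

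**Figure D1:**
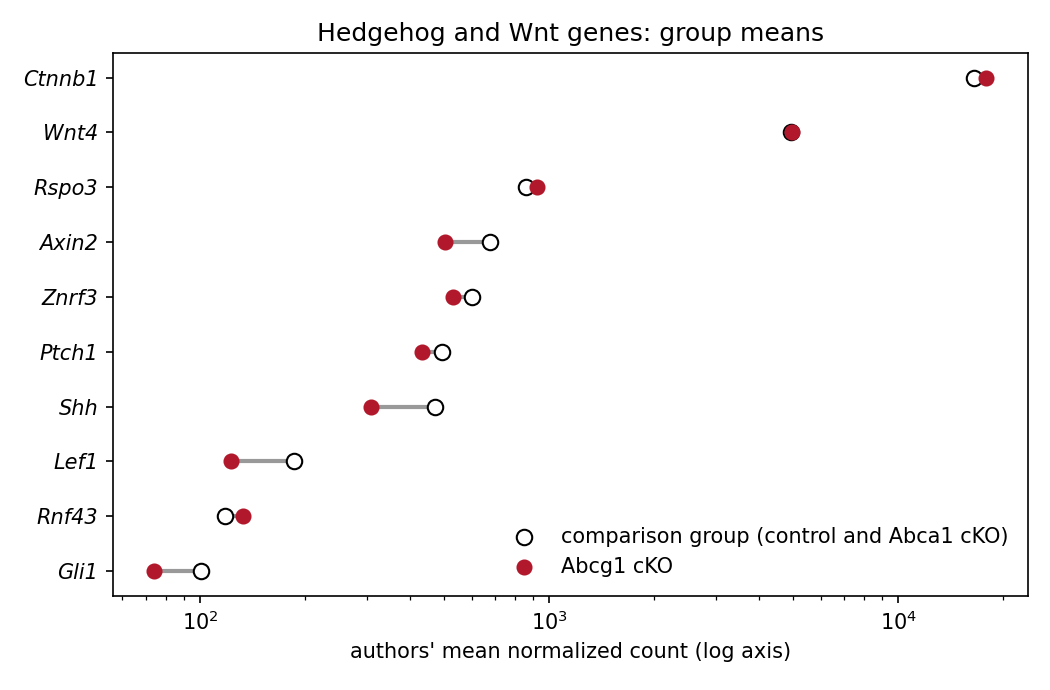
Authors' mean normalized count (horizontal log axis) of each of the 10 genes in Abcg1 cKO adrenals (red, mean of 4 libraries) and in the comparison group of control and Abca1 cKO adrenals (open, mean of 8 libraries), ordered by level. The gap is widest for Shh, at 308 against 471, and the points of Wnt4 coincide, at 4946 against 4934; no error bars are shown because only the means were used.

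The Hedgehog ligand had the lowest ratio of the 10 genes. Shh, on chromosome 5 (mm10, 28456815 to 28467256, minus strand), had a mean of 308 normalized counts in Abcg1 cKO adrenals against 471 in the comparison group. The Abcg1 cKO mean was thus 65.5% of the other, a log2 ratio of -0.61, and 2.84% of all genes past the filter had a lower ratio. Gli1, the transcription factor that Hedgehog-receiving cells induce, lies on chromosome 10 (127329882 to 127341974, minus strand). Its means were 74.1 and 101, which is 73.6% of the comparison mean and a log2 ratio of -0.44. Ptch1, which encodes the Hedgehog receptor and is itself a target of the pathway, lies on chromosome 13 (63508328 to 63573598, minus strand). Its means of 432 and 492 gave a log2 ratio of -0.19, which was in the same direction but within 1.2-fold.

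The remaining Hedgehog genes were spread over both directions. Of 12 listed ligands, receptors and regulators, 10 passed the filter, 1 of them lower, 2 higher and 7 within 1.2-fold, with a median log2 ratio of -0.09. Among all genes past the filter, 11.95% were lower and 10.6% higher. Hhip, a membrane protein that binds and sequesters Hedgehog ligands, had the highest ratio among them, with means of 256 in Abcg1 cKO adrenals against 194 in the comparison group (log2 ratio 0.40). Hhip is a Hedgehog target as well, so the targets Gli1 and Ptch1 on one side and Hhip on the other differed in direction. Dhh, the Desert hedgehog ligand, was lower (46.9 and 57.2, log2 ratio -0.28), while Scube1, a secreted protein of the family that helps release Hedgehog, was just past 1.2-fold higher (458 and 381, log2 ratio 0.27). Smo, the transducer that Patched inhibits, had nearly equal means of 1214 and 1198. Among 6 genes of transduction, Gli3, which acts mainly as a repressor when Hedgehog is absent, was lower (121 and 169.6, log2 ratio -0.48), and the other 5 lay within 1.2-fold. Dhh and Gli3 were in the class of levels from 50 to under 200, where 20.7% of all genes were lower.

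The upstream Wnt genes had means close to those of the comparison group. Wnt4, a Wnt ligand of the zona glomerulosa, lies on chromosome 4 (137277489 to 137299726, plus strand) and had means of 4946 in Abcg1 cKO adrenals against 4934 in the comparison group, a log2 ratio of 0.0034. Rspo3, the capsular R-spondin that sustains the cortical progenitors, lies on chromosome 10 (29452416 to 29535867, minus strand) and had means of 925 and 859 (log2 ratio 0.11). Ctnnb1, on chromosome 9 (120929216 to 120960507, plus strand), had means of 17824 and 16462 (log2 ratio 0.11). None of these 3 genes passed 1.2-fold, and the direction of Wnt4 depended on the scaling, since it was -0.04 when each column was divided by its sum.

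Of 18 other Wnt ligands, 7 passed the filter, and the other 11 had levels under 10. Among the 7, Wnt2b and Wnt9a were higher (485 and 370, log2 ratio 0.39, and 47.2 and 36.1, log2 ratio 0.38), Wnt5b was lower (55.8 and 72.8, log2 ratio -0.38) and 4 lay within 1.2-fold. The shares over all genes past the filter were 11.95% lower and 10.6% higher. In the class of Wnt5b, with levels from 50 to under 200, 20.7% of genes were lower. Rspo1, the other R-spondin above the filter, had means of 83.5 and 96.7 (log2 ratio -0.21). The R-spondin receptors Lgr4 and Lgr5 had means of 3684 against 3091 and of 806 against 691, log2 ratios of 0.25 and 0.22 that stayed within the fold.

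Of the 4 genes among the 10 that are known as Wnt targets in some tissue, Axin2 and Lef1 were lower, while Znrf3 and Rnf43 lay within 1.2-fold. Axin2, a scaffold of the beta-catenin destruction complex that Wnt signals induce as feedback, lies on chromosome 11 (108920349 to 108950783, plus strand). Its means were 502 in Abcg1 cKO adrenals against 678 in the comparison group, which is 74.0% and a log2 ratio of -0.43. Lef1, a transcription factor that partners beta-catenin and is also induced by it, lies on chromosome 3 (131110471 to 131224356, plus strand). Its means were 123 and 186, which is 66.3% and a log2 ratio of -0.59. Of all genes past the filter, 3.04% had a lower ratio than Lef1 and 5.55% a lower ratio than Axin2.

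The windows of 250 bases before the annotated starts of Axin2 and Lef1 are shown because these were the Wnt targets among the 10 genes whose means were lower past 1.2-fold. They come from RefSeq for GRCm38.p6, matched for 6 of the 10 genes, and capitals mark the core CTTTGA of TCF and LEF sites, searched on both strands (TCAAAG on the other). The first is Axin2, chr11:108920099-108920348, plus strand, the second the first annotated start of Lef1, chr3:131110047-131110296, plus strand, and the third an internal start of Lef1, chr3:131156044-131156293, plus strand.
Axin2: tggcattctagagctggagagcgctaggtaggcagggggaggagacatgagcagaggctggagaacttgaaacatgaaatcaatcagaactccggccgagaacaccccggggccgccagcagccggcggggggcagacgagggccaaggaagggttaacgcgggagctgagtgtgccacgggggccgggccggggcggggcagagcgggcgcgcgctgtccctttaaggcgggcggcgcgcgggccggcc
Lef1, first start: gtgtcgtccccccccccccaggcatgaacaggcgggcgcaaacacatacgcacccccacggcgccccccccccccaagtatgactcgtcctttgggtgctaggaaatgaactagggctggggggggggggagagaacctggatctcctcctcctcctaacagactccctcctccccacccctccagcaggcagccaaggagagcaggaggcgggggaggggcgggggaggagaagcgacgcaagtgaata
Lef1, internal start: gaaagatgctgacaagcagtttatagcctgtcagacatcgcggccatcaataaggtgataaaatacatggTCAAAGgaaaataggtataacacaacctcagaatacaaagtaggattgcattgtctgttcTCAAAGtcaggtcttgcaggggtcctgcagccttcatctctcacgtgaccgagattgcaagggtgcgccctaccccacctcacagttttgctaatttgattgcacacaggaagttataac
The core stood in the third window only, 180 to 175 and 120 to 115 bases before the start, both times on the minus strand. It stood in 1 of the 11 windows of these 6 genes and in 13.8% of all 32851 windows. The core TGGGTGG of GLI sites, searched in the same way with CCACCCA, stood in none of the 11 and in 8.11% of all. The 4 genes without a matched window were Shh, Gli1, Rspo3 and Znrf3, so of the Hedgehog genes only Ptch1 was searched, in 1 window. Neither count was tested against its share of all windows. Such a match describes letters in a window and not a bound site.

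The ligases that R-spondin removes did not pass 1.2-fold and differed in direction. Znrf3, on chromosome 11 (5276324 to 5444847, minus strand), had means of 531 in Abcg1 cKO adrenals against 599.6 in the comparison group (log2 ratio -0.18). Rnf43, on the same chromosome (87662722 to 87735539, plus strand), had means of 133 and 118 (log2 ratio 0.17), the highest ratio of the 10 genes. Both encode membrane ubiquitin ligases that send Frizzled receptors for degradation, and both are Wnt targets in other tissues.

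**Figure D2:**
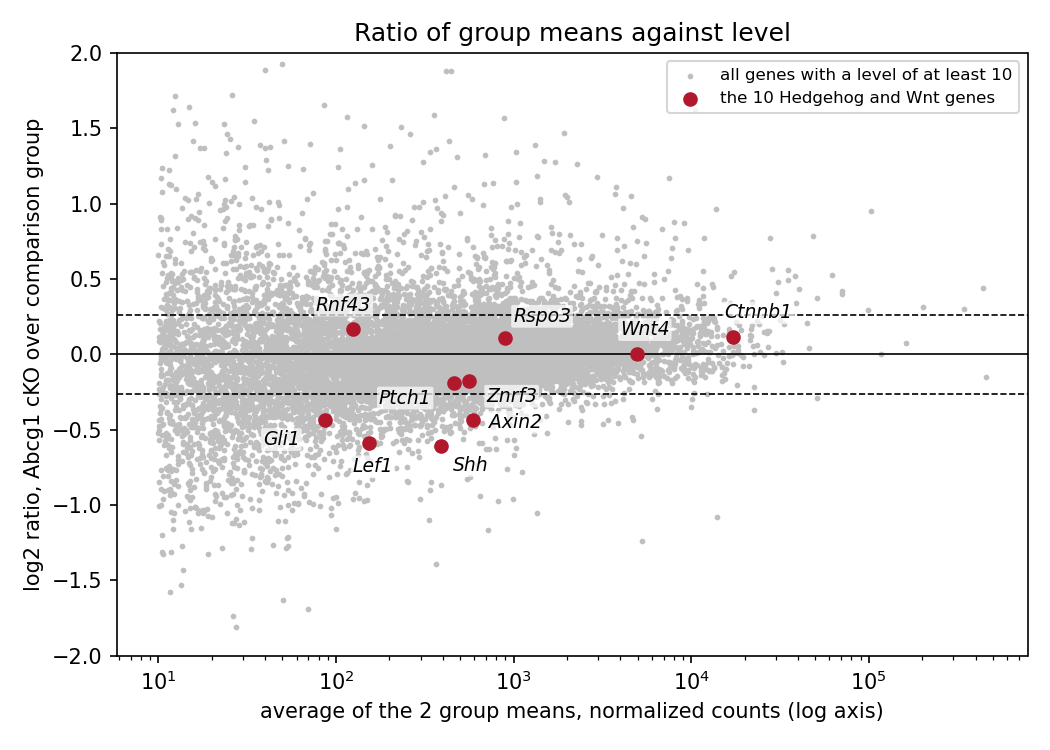
log2 ratio of the group means, Abcg1 cKO over the comparison group (vertical), against the average of the 2 means (horizontal log axis) for 14284 genes (grey) and the 10 Hedgehog and Wnt genes (red), with dashed lines at 1.2-fold. Shh, Lef1, Gli1 and Axin2 lie below the lower line at log2 ratios from -0.61 to -0.43, and 56 grey genes beyond 2 on either side are not drawn.

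Further genes of Wnt signalling were taken from lists of receptors, complex members, nuclear factors, targets and antagonists. Their counts stand beside 11.95% lower and 10.6% higher among all genes past the filter. Of 7 feedback and target genes, all of which passed the filter, 4 were lower, none was higher and 3 lay within 1.2-fold, with a median log2 ratio of -0.32. Apcdd1 and Nkd1, both inhibitors of the pathway that it induces, had means of 298 against 422 (log2 ratio -0.50) and 477 against 638 (log2 ratio -0.42). Nkd2, related to Nkd1, and Sp5, a transcription factor, had log2 ratios of -0.52 and -0.32 at levels under 50. In the class from 10 to under 50, 34.7% of 2015 genes were lower. Apcdd1 and Nkd1 were in the class from 200 to under 1000, where 7.29% were. Tnfrsf19 stood on the other side, with means of 4099 and 3463 (log2 ratio 0.24), and Ccnd1 and Myc, which answer to many signals besides Wnt, had log2 ratios of -0.08 and -0.15. Notum, which encodes an enzyme that inactivates secreted Wnt proteins and is a Wnt target, belongs to a separate list of 3 genes of Wnt ligand processing. It had the lowest ratio of the pathway genes above the filter, with means of 59.1 and 100.4 (log2 ratio -0.76). Its level was 79.7, in the class from 50 to under 200, where 20.7% of genes were lower. Porcn and Wls, also in that list, lay within 1.2-fold at -0.19 and -0.06.

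A minority of the nuclear partners and of the receptors were lower. Of 8 genes above the filter in a list of TCF factors, co-activators and cadherins, 3 were lower, none higher and 5 within 1.2-fold, with a median log2 ratio of -0.23. Tcf7, of the same family as Lef1, had means of 396 and 519.9 (log2 ratio -0.39), and Tcf7l1 had 93.0 and 123 (log2 ratio -0.41). Bcl9, a beta-catenin co-activator, was just past 1.2-fold at -0.26. The cadherin Cdh2, a membrane protein and not a nuclear partner, stood on the other side at 0.07. Of 15 Frizzled, LRP and related receptors, 4 were lower and 11 within 1.2-fold. Fzd5 and Fzd7 had means of 190.0 against 283 and 234 against 348, both with a log2 ratio of -0.57, and Fzd10 and Ror2 were at -0.46 and -0.38. Tcf7l1 and Ror2 were in the class from 50 to under 200, where 20.7% of all genes were lower. Fzd10 was in the class from 10 to under 50, where 34.7% were. Tcf7, Bcl9, Fzd5 and Fzd7 were in the class from 200 to under 1000, where 7.29% were. The 13 genes of the destruction complex and the Dishevelled proteins all lay within 1.2-fold, from -0.13 for Apc2 to 0.19 for Fbxw11.

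Secreted antagonists went in both directions. Of 14 listed, 7 passed the filter, 1 of them lower, 2 higher and 4 within 1.2-fold. The list also held Kremen1 and Kremen2, membrane receptors of the Dkk antagonists and not secreted, of which Kremen1 passed the filter and lay within 1.2-fold (log2 ratio -0.06). Frzb, a secreted Frizzled-related protein that binds Wnt ligands, was the most abundant of them in counts, with means of 15373 in Abcg1 cKO adrenals against 11303 in the comparison group (log2 ratio 0.44). Sfrp4, of the same family, had means of 87.5 and 53.8 (log2 ratio 0.69), and Sfrp5 had 74.5 and 93.4 (log2 ratio -0.32). In the class of Sfrp5, from 50 to under 200, 20.7% of genes were lower. Over all lists, 79 of 103 genes passed the filter, and 16 of these (20.3%) were lower and 6 (7.59%) higher, with a median log2 ratio of -0.06, beside 11.95% and 10.6% of all genes. Of the 16 lower genes, 10 were among the 28 pathway genes with levels under 200, where 26.9% of all genes were lower, and 6 were among the 30 from 200 to under 1000, where 7.29% were. After the median ratio of each level class was subtracted, 12 of the 79 (15.2%) were lower, beside 10.1% of all genes.

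**Figure D3:**
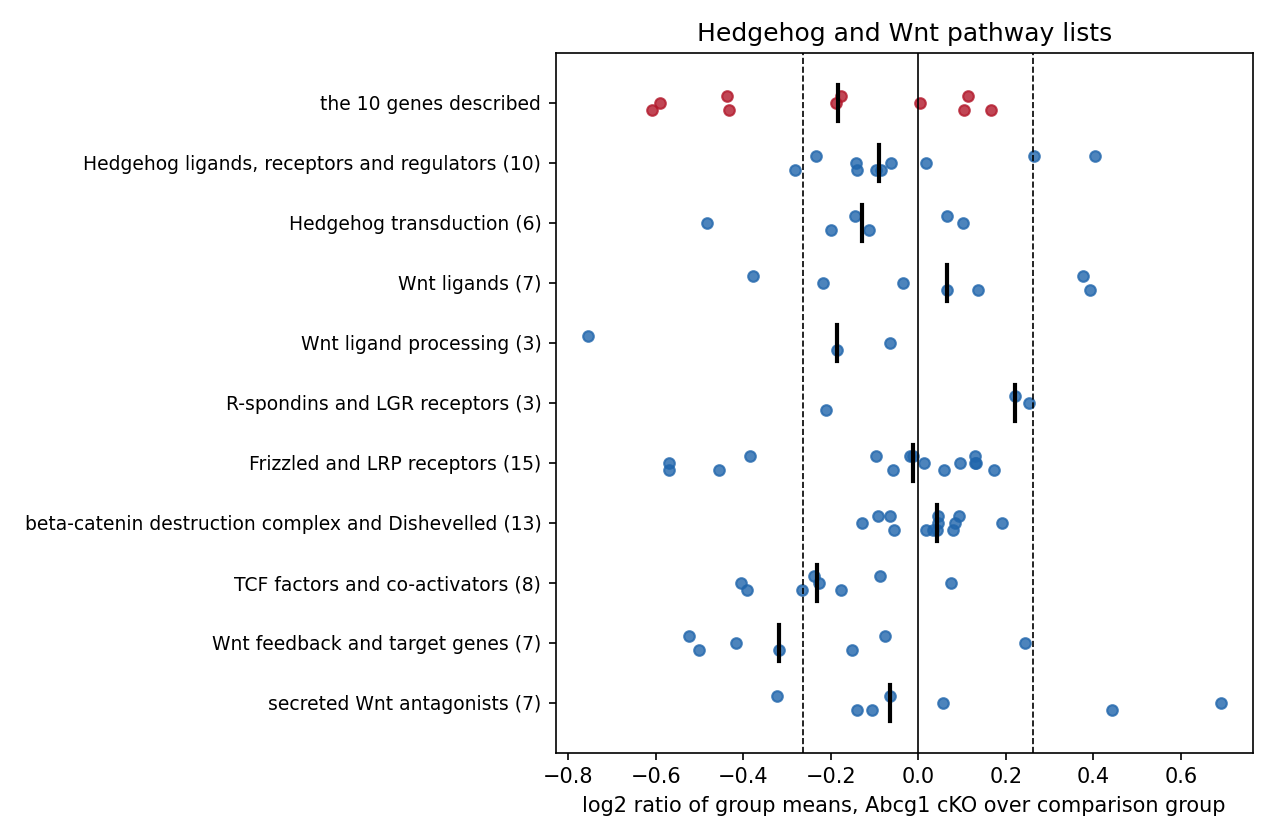
log2 ratio of the group means, Abcg1 cKO over the comparison group (horizontal), for the 10 genes (red) and for the genes of each pathway list that passed the filter (blue, number in brackets), with black bars for medians and dashed lines at 1.2-fold. The medians run from -0.32 for Wnt feedback and target genes to 0.22 for R-spondins and LGR receptors, and points are offset vertically only to separate them.

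The levels of the 10 genes spanned a wide range once divided by the merged exon length of each gene. In the comparison group Ctnnb1 stood first with 3171 normalized counts per kilobase, followed by Wnt4 with 1176, Rspo3 with 278, Shh with 165 and Axin2 with 123. Znrf3 had 76.0, Ptch1 34.7, Lef1 21.1, Gli1 20.1 and Rnf43 18.0 per kilobase. In Abcg1 cKO adrenals Rnf43, with 20.2, stood above Gli1 with 14.8 and Lef1 with 14.0, and the other 7 kept their places. Whether neighbours in this order differ beyond the spread between animals was not tested.

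Markers of the cells that send and receive these signals were set beside the 10 genes. The zona glomerulosa, which holds the Shh and Wnt4 cells, had 5 markers, of which 1 was higher, none lower and 4 within 1.2-fold, with a summed mean of 17792 in Abcg1 cKO adrenals against 18712 in the comparison group. Dab2 held the largest part of this sum, and 3 of the 5 markers had higher means although the sum was lower. Cyp11b2, the aldosterone synthase, had means of 3483 and 3163 (log2 ratio 0.14), Agtr1a, an angiotensin receptor, 3663 and 3047 (log2 ratio 0.27), and Dab2, an adaptor protein of the zone, 9484 and 11308 (log2 ratio -0.25). The study names the Cre strain as an allele of Cyp11b2 itself, and whether Cre changed the counts of this marker was not tested. Of 9 capsule and fibroblast markers, 2 were lower (Wt1 at -0.47 and Tcf21 at -0.38), 1 higher (Col3a1 at 0.32) and 6 within 1.2-fold, with summed means of 10552 and 10007. Wt1 had means of 12.9 and 18.3, near the filter, in the class under 50 where 34.7% of all genes were lower. Tcf21, with means of 196 and 255, was in the class from 200 to under 1000, where 7.29% were. Nr2f2 and Pdgfra, among the 6 within it, had log2 ratios of -0.03 and 0.02. The 9 markers do not separate the capsular cells that receive Shh from other fibroblasts.

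Medulla, adipocyte, zona fasciculata and X-zone markers had higher sums in Abcg1 cKO adrenals, while endothelial and Schwann cell sums were close to those of the comparison group. The macrophage and lymphocyte sum was lower, at 1320 in Abcg1 cKO adrenals against 1532 in the comparison group. All 5 medulla markers were higher, with summed means of 174927 and 128543, and all 5 adipocyte markers were higher, with summed means of 31507 and 13270. Of 6 genes listed for the zona fasciculata 5 were higher, with summed means of 1716909 and 1470058. Cyp11b1 and Akr1b7 were among them, at log2 ratios of 0.31 and 0.79. The list also held Star, Cyp11a1, Cyp21a1 and Hsd3b1, steroidogenic genes not limited to this zone, so its sum does not stand for the zone alone. Both X-zone markers were higher (35283 and 26690). Of 4 macrophage and lymphocyte markers above the filter, 2 were lower and 2 within 1.2-fold. Those lower were Cd79a, with means of 9.09 and 21.6 (log2 ratio -1.16), and Cd68, with 539 and 665 (log2 ratio -0.30). Ptprc and Adgre1 were at -0.20 and -0.04. Cd3e, under the filter, had means of 4.47 and 9.37. Cd79a was in the class of levels from 10 to under 50, where 34.7% of all genes were lower. None of the 4 endothelial markers passed 1.2-fold (log2 ratio of their sums -0.08). Of 4 Schwann cell markers, 3 passed the filter and 1 of these was higher (log2 ratio of the sums -0.03). Of the 3 kidney markers, Umod and Kap were listed at 0 in both groups. The part of these differences in the lower means of Shh, Gli1, Lef1 and Axin2 was not tested.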

How the data were processed

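Polyadenylated RNA of whole adrenals was sequenced as stranded libraries. Per the study's methods and the submitters' processing notes, reads were demultiplexed with bcl2fastq 2.20.0.422, trimmed with cutadapt 4.0, checked with FastQC 0.11.9, mapped to mm10 with STAR 2.7.10a and counted per gene with HTSeq 0.13.5, using uniquely mapped reads. The deposited signal values are means per group of counts that the authors divided by DESeq2 1.38.3 size factors. A further 12 columns, 1 for each library, have headers found in none of the sample labels, so they were left unused, as were the authors' fold changes, standard errors and p-values. The planned tests per library were therefore not run, and ratios of the 2 means were described instead.

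Ratios used a pseudocount of 1, levels of at least 10 and the study's 1.2-fold threshold. Named genes are the 10 genes, up to 4 genes with the lowest and highest ratio in each list, the targeted genes and zone markers. Marker genes other than Cyp11b2, Dab2 and Cyp11b1 were named after their values were seen. A gene of the Hedgehog list is not reported here and was left out of its counts. Genes and lists were chosen with earlier results of these data known. Positions and merged exon lengths came from GENCODE M21 (GRCm38), which is not the authors' annotation, so levels per kilobase are approximate. Tables were handled in Python 3.11.15 with pandas 2.3.3 and NumPy 2.4.6. The calculation was run on copies of the comparison means with known fold changes and no noise added, which checks the arithmetic only. Alternatives were pseudocounts of 0.1 and 10, no filter or a level of at least 50, folds of 1.1 and 1.5, centring on the median and, chosen after seeing the data, scaling to column sums and centring within level classes.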

Additional observations from a re-analysis of the deposited data

How the results depend on the processing

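All 50 recomputed log2 ratios of the 10 genes, under pseudocounts of 0.1 and 10, median centring, scaling to column sums and centring within level classes, stayed on their side of 1.2-fold, with a largest shift of 0.08. These alternatives rescale the same 2 means by small amounts and do not address the variation between mice. Ratios ran from -0.65 to -0.59 for Shh, -0.63 to -0.53 for Lef1, -0.48 to -0.42 for Axin2 and -0.48 to -0.37 for Gli1. With a threshold of 1.1-fold, 6 of the 10 genes were lower and 1 higher, and 29 listed pathway genes were lower and 11 higher. With 1.5-fold, 2 of the 10 genes were lower, and 1 pathway gene was lower and 1 higher. These counts follow from the threshold itself. Without the filter on low values 15 pathway genes were higher against 6 with it, since genes with levels under 10 were then counted. Centring within level classes left 12 of 16 pathway genes lower, and scaling to column sums gave 19.

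No paired analysis was possible because the group means carry no replicate numbers. No library was left out and no other normalization of libraries was run, because the single-library columns matched no sample label and were left unused. For that reason too, neither Abcg1 cKO against control alone nor Abca1 cKO against control was compared. No error is given for any ratio, since the single-library columns were not used.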

Other observations

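The log2 ratio of the group means depended on the level of a gene. Its median was -0.10 over the 2015 genes with levels from 10 to under 50, -0.06 from 50 to under 200, -0.01 from 200 to under 1000, 0.04 from 1000 to under 5000 and 0.08 over the 525 genes above that. The SD of the ratio over genes was 0.62 in the lowest of these classes and 0.17 in the class from 1000 to under 5000. Ratios relative to the class of each gene are among the alternatives above.

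Abca1, the other transporter targeted in the study, stood at 10057 normalized counts in the authors' Abcg1 cKO mean and at 7791 in that of the comparison group, where 4 of 8 libraries are Abca1 cKO (log2 ratio 0.37).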
